A study of Mus musculus with 14 samples.

Results

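Rag1, Rag2 and Dntt, which encode the 3 lymphoid proteins specific to the assembly of antigen receptor genes, were followed through 14 RNA sequencing libraries of mouse T-cell acute lymphoblastic leukaemia. The genes were found by symbol among the 12421 genes of the count table, and all 3 were present and passed the filter on low counts. They were chosen by their normalised read counts (CPM) in each class of tumour with and without Dox, so those levels and their changes are given as a description, with no test. The leukaemias, numbered VTL, were induced by the oncogene Lmo2, and some hosts were fed doxycycline (Dox). The labels divide 8 tumours by their need for Lmo2 into 3 independent (VTL-44, VTL-33, VTL-81), 3 evolving (VTL-153, VTL-25, VTL-21) and 2 dependent (VTL-19, VTL-24). Each independent and evolving tumour has 1 library from hosts whose food held Dox at 600 mg/kg and 1 from hosts without Dox, while the dependent tumours have only the library without Dox.

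All tumours share the same hosts. Per the labels' protocols, thymocytes were first placed in F1 mice of C57BL/6-Ly5.1 and FVB after a sublethal radiation dose, and each leukaemia was then passed to C57BL/6-Rag1-/- mice. Cells positive for both CD45.1 and CD45.2 were sorted from their spleens. The secondary hosts therefore lack a working Rag1 gene of their own, and the promoter that drives the transgene is not given in the sources used here. The tumour number is the replicate. A group of 2 or 3 tumours limits the precision of every mean, and in bulk RNA fewer cells that express a gene and less RNA per cell cannot be told apart.

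RAG1 and RAG2 proteins form the recombinase that cuts DNA at the recombination signal sequences beside V, D and J segments. RAG1 carries the catalytic site, and RAG2 carries a PHD finger that binds methylated histone tails. Dntt encodes terminal deoxynucleotidyl transferase (TdT), which adds nucleotides without a template to the cut ends before general end joining factors seal them. In the normal thymus Rag1 and Rag2 are expressed in immature thymocytes while the beta and then the alpha chain of the T-cell receptor is assembled, and are switched off in cells that have passed positive selection. TdT is made in immature thymocytes too.

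Rag1 and Rag2 are neighbours on mouse chromosome 2 and point towards each other, while Dntt lies on chromosome 19. In GENCODE M21, on mm10, Rag1 (ENSMUSG00000061311) spans 101638282 to 101649501 on the minus strand, with 6608 bases of exon. Rag2 (ENSMUSG00000032864) spans 101624718 to 101632529 on the plus strand, with 3424 bases of exon. Dntt (ENSMUSG00000025014) spans 41029275 to 41059525 on the plus strand, with 2292 bases of exon. The exons of Rag1 and Rag2 share no base. A long minus-strand gene, B230118H07Rik, runs across both and shares 80 exon bases with Rag1 (1.21% of its exons) and 208 with Rag2 (6.07%). Reads in those stretches cannot be assigned with certainty. B230118H07Rik lies on the same strand as Rag1, and for Rag2 the strand setting of the counting is not given in the sources used here.

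The 250 bases before each RefSeq start site (GRCm38.p6) are shown as a description, and their part in the levels of the 3 genes was not tested. Capitals mark matches on either strand to 3 short motifs: CANNTG, the E-box bound by E proteins, TGGGAA, the core of Ikaros sites, and TGTGGT, a Runx site. The Rag1 window is chr2:101649533-101649782 (minus strand), the Rag2 window chr2:101624462-101624711 (plus strand) and the Dntt window chr19:41029025-41029274 (plus strand).
Rag1: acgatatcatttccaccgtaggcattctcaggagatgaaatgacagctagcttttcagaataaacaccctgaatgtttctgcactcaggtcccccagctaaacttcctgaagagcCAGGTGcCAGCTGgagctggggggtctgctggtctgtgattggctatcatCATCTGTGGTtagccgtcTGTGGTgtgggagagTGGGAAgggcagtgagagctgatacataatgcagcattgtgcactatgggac
Rag2: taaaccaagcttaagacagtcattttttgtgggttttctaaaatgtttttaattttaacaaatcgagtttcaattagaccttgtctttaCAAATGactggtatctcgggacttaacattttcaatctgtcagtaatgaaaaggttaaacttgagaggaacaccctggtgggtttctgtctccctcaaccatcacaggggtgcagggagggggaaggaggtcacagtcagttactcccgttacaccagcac
Dntt: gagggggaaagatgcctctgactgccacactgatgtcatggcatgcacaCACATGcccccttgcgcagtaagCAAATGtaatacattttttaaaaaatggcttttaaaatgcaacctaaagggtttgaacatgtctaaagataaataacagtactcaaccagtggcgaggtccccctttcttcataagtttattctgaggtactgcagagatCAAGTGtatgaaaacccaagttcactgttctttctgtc
The Rag1 window held 3 E-boxes, 1 Ikaros core and 2 Runx matches, and the E-box CATCTG overlaps the Runx match that follows it. The Rag2 window held 1 E-box and the Dntt window 3, with no match to the other motifs in either. Of 32851 mouse promoter windows of the same length, 66.2% held an E-box, 21.6% the Ikaros core and 14.05% the Runx letters. These matches describe letters only, and no binding was measured.

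The libraries held 18214415 to 24048281 counts over the listed genes, with 1.62% to 6.01% in mitochondrial genes. The 9 T-cell markers summed to 3342 to 6033 CPM (a gene's counts relative to its library's total, scaled by TMM factors) in every library. Of 11 B-lineage markers only Cd79b and Blnk were in the table and summed to 0.421 to 29.0 CPM, and the others were not analysed here. The myeloid markers, 8 of 8 in the table, summed to 160 to 1933 CPM in independent tumours with Dox, 64.3 to 1399 without Dox, 19.2 to 167 in evolving tumours with Dox, 15.4 to 210 without Dox, and 27.6 to 93.3 in dependent tumours. The summed level of 5 of 7 erythroid markers was 0.0935 to 130 CPM, highest in VTL-21 with Dox, and of 1 of 4 natural killer markers 0 to 31.6. The stromal markers, 4 of 6 in the table, summed to 364 to 902 CPM in independent tumours with Dox, 257 to 630 without Dox, 179.8 to 270.1 in evolving tumours with Dox, 155 to 181 without Dox, and 142 to 164 in dependent tumours. Lmo2 was at 1.32 to 8.46 CPM in independent tumours with Dox. Without Dox it was at 600 CPM in VTL-33, 27.2 in VTL-81 and 9.28 in VTL-44. It was at 0.198 to 3.24 CPM in evolving tumours with Dox and 303 to 708 without, and at 120 and 142 in dependent tumours. Among libraries without Dox, the VTL-153 and VTL-25 pair stood apart as alike. Only 3 genes exceeded 20 CPM in either of them while staying under 0.5 CPM in its counterpart, whereas any other pair had 21 to 130 such genes.

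Rag1 was abundant in most of the leukaemias but varied widely. In independent tumours with Dox it stood at 167 CPM in VTL-33, 140 in VTL-44 and 193 in VTL-81, against 937, 528 and 162 CPM in the same tumours without Dox. In evolving tumours with Dox it stood at 842 CPM in VTL-21, 744 in VTL-25 and 937 in VTL-153, against 189, 367 and 539 CPM without Dox. The dependent tumours had 232 CPM in VTL-19 and 33.99 in VTL-24. The evolving tumours with Dox thus lay above all of their partners without Dox, as for 8.77% of genes. They also lay above every independent tumour with Dox, as for 4.81%. The independent tumours without Dox spanned 162 to 937 CPM, and VTL-24 was the lowest of all, with 27.6-fold less Rag1 than the highest library.

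Rag2 showed a like pattern. In independent tumours with Dox it had 11.4 CPM in VTL-33, 6.53 in VTL-44 and 6.91 in VTL-81, against 77.1, 22.5 and 4.14 CPM without Dox. In evolving tumours with Dox it had 38.9 CPM in VTL-21, 26.7 in VTL-25 and 34.4 in VTL-153, against 9.39, 10.2 and 13.0 CPM without Dox. In the dependent tumours it had 2.89 CPM in VTL-19, from 55 counts, and no count in VTL-24, where 3 counts, a limit that covers counting error only, would have made 0.140 CPM. The evolving groups did not overlap, as for 8.77% of genes with the Dox group higher. VTL-33 without Dox was the highest library, and both dependent tumours lay below all others. Of all genes, 15% separated the dependent tumours in this way from the independent with Dox. For the independent without Dox it was 14.5%, and for the evolving without Dox 10.1%. The share for all groups at once is not given here.

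Dntt levels differed widely within each group. In independent tumours with Dox it had 468 CPM in VTL-33, 98.5 in VTL-44 and 1375 in VTL-81, against 699, 127 and 1331 CPM without Dox. In evolving tumours with Dox it had 286 CPM in VTL-21, 668 in VTL-25 and 975 in VTL-153, against 944, 1411 and 703 CPM without Dox. The dependent tumours had 1699 CPM in VTL-19 and 828 in VTL-24. Here the groups overlapped throughout. The independent tumours kept their order with and without Dox, VTL-44 was the lowest under both conditions, and the highest library had 17.2 times the level of the lowest.

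**Figure D1:**
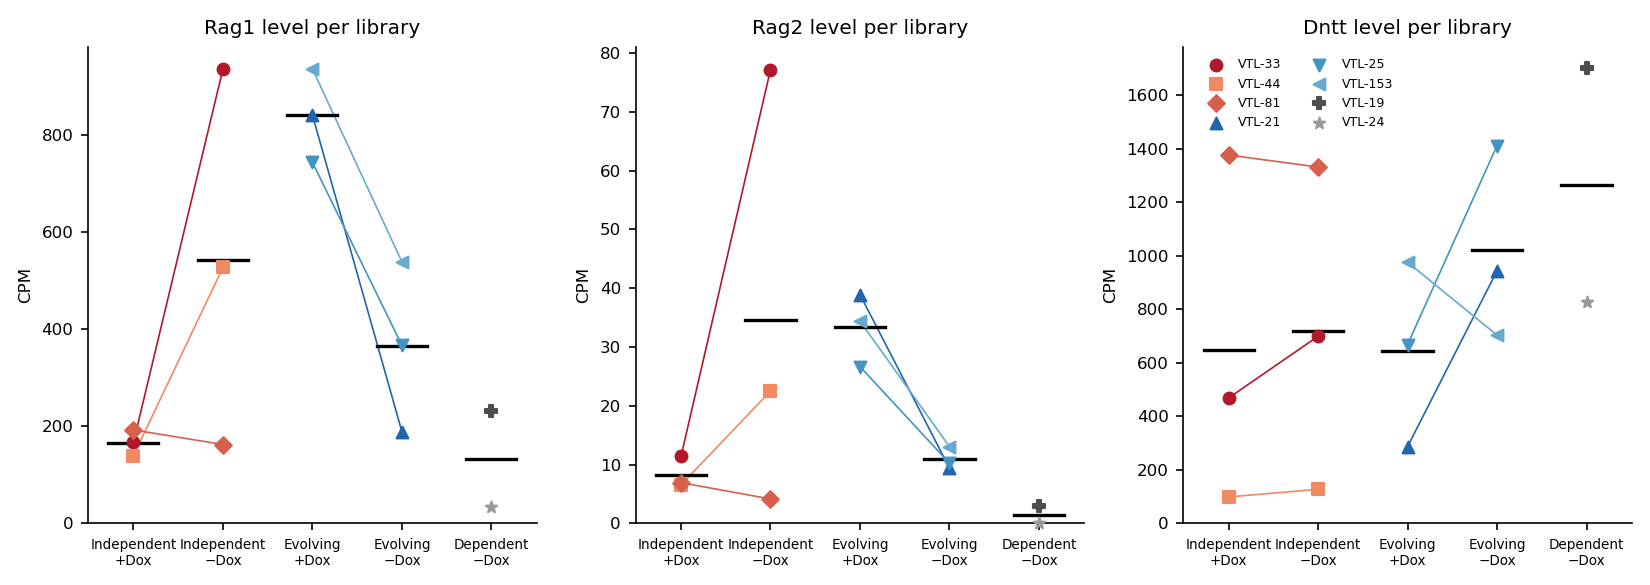
Level in CPM of Rag1, Rag2 and Dntt in each of the 14 libraries, by class of tumour and Dox, on linear axes; lines join the libraries of 1 tumour and black bars are group means. Rag1 and Rag2 are higher with Dox in every evolving tumour and in VTL-81, and lower with Dox in VTL-33 and VTL-44, while the Dntt groups overlap.

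Ordered by their means, the groups gave a different sequence for each gene. For Rag1 the order was evolving with Dox at 841 ± 96.3 CPM, independent without Dox at 542 ± 387, evolving without Dox at 365 ± 175, independent with Dox at 166 ± 26.5 and dependent at 133 ± 140 (SD, n = 3 tumours, 2 for dependent, here and below). Every neighbouring pair in that order had overlapping ranges, so the order of neighbours is not resolved. For Rag2 the order was independent without Dox at 34.6 ± 38.0 CPM, evolving with Dox at 33.3 ± 6.19, evolving without Dox at 10.9 ± 1.92, independent with Dox at 8.27 ± 2.69 and dependent at 1.45 ± 2.04. Its evolving groups, and the independent tumours with Dox and the dependent tumours, were neighbours without overlap, the separation of the independent from the dependent being one that 15% of genes showed. For Dntt the order was dependent at 1263 ± 616 CPM, evolving without Dox at 1019 ± 360, independent without Dox at 719 ± 602, independent with Dox at 647 ± 657 and evolving with Dox at 643 ± 345, with overlap at every step.

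With Dox, both RAG genes were higher in all 3 evolving tumours. The log2 change in Rag1 was 2.16 in VTL-21, 1.02 in VTL-25 and 0.80 in VTL-153, and in Rag2 it was 2.05, 1.38 and 1.40 in the same tumours. Of 12360 genes, 17.3% were higher with Dox in all 3 evolving tumours, and 8.77% had evolving groups that did not overlap with the Dox group higher, as Rag1 and Rag2 did. Since these levels chose the genes, nothing is read from that count. The fitted log2 change over the 3 tumours was 1.32 (SE 0.53) for Rag1 and 1.61 (SE 0.60) for Rag2. Dntt had log2 changes of -1.72 in VTL-21, -1.08 in VTL-25 and 0.47 in VTL-153, and a fitted change of -0.79 (SE 0.40). Its direction thus differed between tumours. Without VTL-25 the fitted changes were 1.48 for Rag1 and 1.73 for Rag2, and without VTL-153 they were 1.57 and 1.70. Without VTL-21 the fitted changes were 0.89 for Rag1, 1.37 for Rag2 and -0.33 for Dntt, and without VTL-153 the Dntt value was -1.41.

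VTL-21 with Dox stood apart in erythroid markers and in a pair of immunoglobulin genes, whose part in the values of that tumour was not tested. The erythroid markers summed to 130 CPM there, against 5.35 without Dox. Ighm, the immunoglobulin heavy chain mu gene, chosen after its values were seen, stood at 6275 CPM, against 222 without Dox and 20.9 to 779 in the other libraries. Jchain, which joins secreted immunoglobulin units and was chosen in the same way, stood at 632 CPM, against 67.5 without Dox. The B-lineage markers Cd79b and Blnk summed to 11.6 CPM in that library, against 16.5 without Dox. Cells were sorted on CD45.1 and CD45.2, and which cells these transcripts came from was not tested.

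In the independent tumours the RAG genes divided by tumour. The log2 change with Dox in Rag1 was -2.49 in VTL-33, -1.92 in VTL-44 and 0.25 in VTL-81, and in Rag2 it was -2.76, -1.78 and 0.74. VTL-33 and VTL-44 were thus lower with Dox for both genes, and VTL-81 was slightly higher from a low start. The fitted log2 changes were -1.43 (SE 0.57) for Rag1 and -1.35 (SE 0.66) for Rag2. Without VTL-81 they were -2.20 and -2.28, and without VTL-33 they were -0.85 and -0.54. Dntt had -0.58 in VTL-33, -0.37 in VTL-44 and 0.05 in VTL-81, with a fitted change of -0.30 (SE 0.39), and of -0.17 without VTL-33 or -0.47 without VTL-81. The myeloid markers of VTL-81 summed to 1933 CPM with Dox, against 171 without, those of VTL-44 to 769 with and 1399 without, and those of VTL-33 to 160 with and 64.3 without. The stromal markers, 4 of 6 in the table, summed to 886 CPM in VTL-33, 364 in VTL-44 and 902 in VTL-81 with Dox, against 257, 431 and 630 CPM without Dox. The part of either marker list in the RAG values was not tested.

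The fitted Dox responses of the RAG genes therefore ran apart in the independent and the evolving class. VTL-81, an independent tumour, was the exception, being higher with Dox in both genes. Independent minus evolving, the difference of log2 changes was -2.74 (SE 0.78) for Rag1 and -2.96 (SE 0.89) for Rag2. For Dntt it was 0.49 (SE 0.56). With each tumour left out in turn the difference lay between -3.52 and -2.14 for Rag1, between -3.89 and -2.13 for Rag2 and between 0.02 and 1.11 for Dntt. With Dox, all independent tumours lay below all evolving tumours in both RAG genes, a separation in that direction that 4.81% of genes showed. Dntt showed no such separation.

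**Figure D2:**
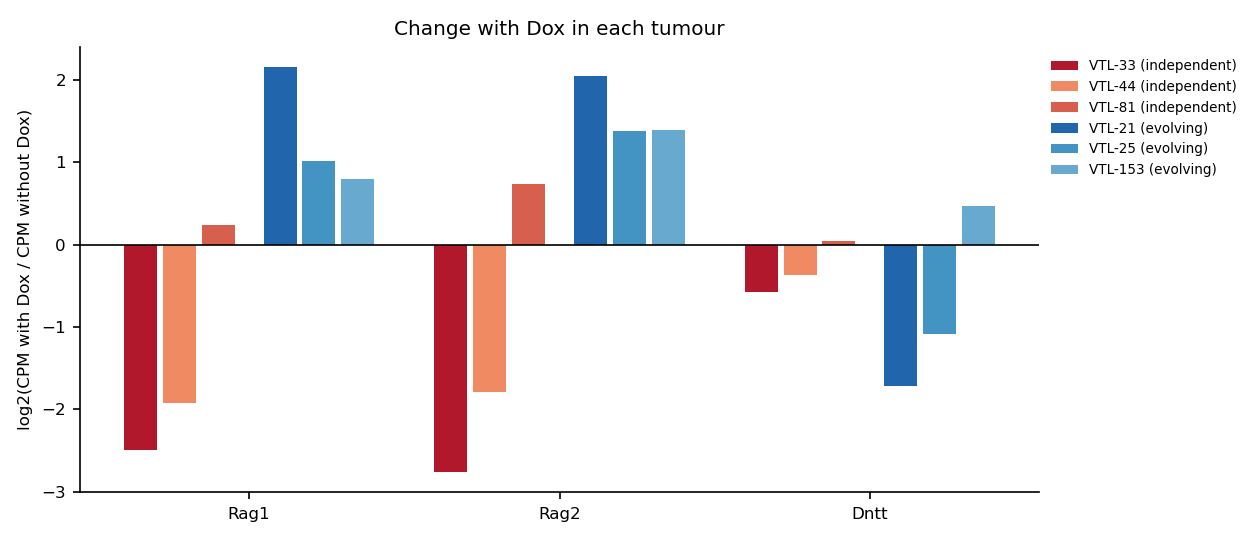
Log2 ratio of CPM with Dox to CPM without Dox for Rag1, Rag2 and Dntt in each of the 6 tumours with both libraries (bars, from 0). For Rag1 and Rag2 the bars of the evolving tumours are all above 0, between 0.80 and 2.16. For the same genes those of VTL-33 and VTL-44 are at -1.78 or lower, and those of VTL-81 are at 0.25 and 0.74.

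Without Dox, the RAG genes were lowest in the dependent class, and the errors were wide. Independent minus evolving, the fitted log2 difference was 0.57 (SE 0.83) for Rag1, 1.67 (SE 1.31) for Rag2 and -0.50 (SE 0.74) for Dntt. Independent minus dependent, it was 2.03 (SE 1.00) for Rag1, 4.59 (SE 1.78) for Rag2 and -0.81 (SE 0.82) for Dntt. Evolving minus dependent, it was 1.46 (SE 0.97) for Rag1, 2.92 (SE 1.64) for Rag2 and -0.31 (SE 0.82) for Dntt. These comparisons share their groups and are not independent of each other. The Rag1 ranges of all classes overlapped. For Rag2, every independent and evolving library without Dox lay above both dependent libraries. Of all genes, 14.5% showed this for the independent tumours without Dox and 10.1% for the evolving tumours without Dox. The nearest libraries were VTL-81 without Dox at 4.14 CPM and VTL-19 at 2.89. The dependent mean rests on 2 tumours that differed in Rag1. Without VTL-24 the Rag1 difference was 1.22 for independent minus dependent and 0.65 for evolving minus dependent, and without VTL-19 it was 4.00 and 3.42. Without VTL-33, independent minus evolving was -0.08 for Rag1 and 0.29 for Rag2. The Dntt differences also rested on single tumours. Independent minus evolving was -1.30 without VTL-81, -0.20 without VTL-25 and -0.0056 without VTL-44. Independent minus dependent was -1.61 without VTL-81, -1.24 without VTL-24, -0.32 without VTL-44 and -0.20 without VTL-19.

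Levels of the 3 genes were set against each other per length. Per kilobase of exon, Rag1 was 6.29 to 41.6 times the level of Rag2 in the 13 libraries with Rag2 counts, with a median of 14.1. The lowest ratio was in VTL-33 without Dox and the highest in VTL-19. In VTL-24, taking the floor of 3 counts for Rag2, Rag1 was at least 126-fold higher per kilobase. On the same scale the ratio of Rag1 to Dntt ran between 0.0142 in VTL-24 and 1.44 in VTL-44 without Dox, with a median of 0.195. TdT transcripts were thus the most abundant of the 3 per length in 12 of 14 libraries, the exceptions being VTL-44 without Dox and VTL-21 with Dox, at a ratio of 1.02.

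Over the 14 libraries, which share tumours in 6 pairs and so are not independent, Rag2 was the gene most like Rag1 of 8028 genes ranked by correlation of log2 CPM, and Rag1 the gene most like Rag2. The Pearson r was 0.913, and between 0.864 and 0.928 with each tumour left out. Rag1 and Dntt had r = -0.0993 (-0.31 to -0.00562), and Rag2 and Dntt r = -0.23 (-0.345 to -0.176). After Rag2, the genes most like Rag1 were Hdgfrp3 (r = 0.863), Kat6b (0.804), Slc37a2 (0.798) and Slc5a9 (0.793). After Rag1, those most like Rag2 were Nrp1 (0.908), Hdgfrp3 (0.879), Map7 (0.844) and Cd24a (0.825). Those most like Dntt included Spice1 (0.892), Arfrp1 (0.890), Zfp524 (0.890) and Nudt5 (0.888). These sets depended on single tumours: without VTL-24 1 of the 5 stayed among the 5 for Rag1 and 1 for Rag2, and without VTL-44 none stayed for Dntt.

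**Figure D3:**
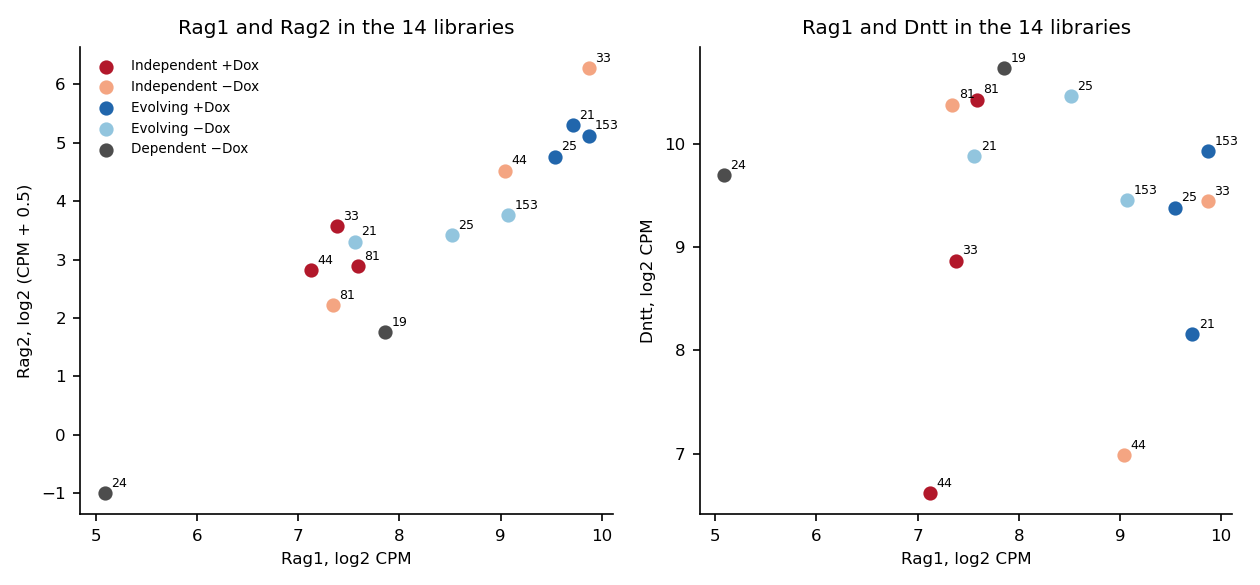
Level of Rag2 (left) and Dntt (right) against Rag1 in the 14 libraries, as log2 CPM, with 0.5 added to the CPM of Rag2, by class and Dox; numbers are those of the tumours. Rag1 and Rag2 lie along a line (r = 0.913), and Rag1 and Dntt do not (r = -0.0993).

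The genes beside the members were read as well. Traf6, a signalling ligase next to Rag1, ranged over 80.4 to 240 CPM, and the overlapping B230118H07Rik over 0.655 to 27.8 CPM. In evolving tumours B230118H07Rik had 19.9 CPM in VTL-21, 5.35 in VTL-25 and 5.97 in VTL-153 with Dox, against 12.9, 2.28 and 5.75 CPM without Dox. In independent tumours it had 14.7 CPM in VTL-33, 5.07 in VTL-44 and 3.48 in VTL-81 with Dox, against 27.8, 2.88 and 4.35 CPM without Dox. In dependent tumours it had 3.26 CPM in VTL-19 and 0.655 in VTL-24. Its highest and lowest libraries, VTL-33 without Dox and VTL-24, were also those of Rag2. Next to Dntt, Opalin was not analysed here, and Blnk is among the B-lineage markers above.

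The companion genes of recombination, 73 of 74 listed genes in 7 lists, were tested in the same fits. Paxx was not analysed here. With Dox in evolving tumours 9 of 73 passed an adjusted p of 0.05 in edgeR's quasi-likelihood test (6 higher and 3 lower), where 2.13% of 12360 genes did (1.1% higher and 1.03% lower). DESeq2 called 18 of the 73 and 10.6% of all genes. The lists were chosen with earlier results of these data known, so no count of companion genes, here or below, is read as an excess. Of the 9 end joining genes, which seal the cut ends, 1 passed, higher with Dox, and the list's median log2 change was 0.24. That gene was Poll, DNA polymerase lambda, a relative of TdT that fills gaps with a template, at 14.8 ± 1.65 CPM with Dox and 2.62 ± 1.41 CPM without Dox (log2 change 2.62, SE 0.32, adjusted p = 0.0170). It stood at 12.9 to 16.1 CPM with Dox in the 3 evolving tumours and 1.35 to 4.13 CPM without Dox. The groups thus did not overlap, as for 8.77% of genes with the Dox group higher.

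No gene of the 10 break response genes (median log2 change -0.11) or of the 8 RAG cofactor and turnover genes (median -0.02) passed, while the median of all genes was -0.00223. Of 14 regulators of Rag and Dntt, 2 passed, both higher with Dox. Foxo1, a transcription factor known in B cells to activate Rag genes, was at 108 ± 17.1 CPM with Dox and 48.6 ± 14.2 CPM without Dox (log2 change 1.19, SE 0.21, adjusted p = 0.0442). Id3, an inhibitor of E proteins, was at 74.3 ± 48.5 CPM with Dox and 6.92 ± 1.19 CPM without Dox (log2 change 3.21, SE 0.53, adjusted p = 0.0388). The median of the regulators was 0.11.

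Some genes of thymocyte stages passed too. In the double-positive list 1 of 11 passed edgeR's test, Cd8b1, which encodes the CD8 beta chain. It was at 285 ± 130 CPM with Dox and 45.9 ± 23.97 CPM without Dox (log2 change 2.61, SE 0.41, adjusted p = 0.0320). The list's median was 0.88, with 8 of 11 changes above 0. Arpp21 changed by -0.92, Ptcra by -0.50 and Cd1d1 by -0.17, and none of these passed. In the early thymocyte list 3 of 10 passed, all lower with Dox, and the median was -2.79. Cpa3, a protease of mast cells that is also expressed in early thymocytes, changed by -9.87 (SE 0.66, adjusted p = 0.00856), Hhex, a progenitor homeobox gene, by -7.52 (SE 1.24, adjusted p = 0.0390) and Lyl1, a partner of Lmo2, by -5.72 (SE 0.95, adjusted p = 0.0402). Few counts of these 3 were left with Dox, so the sizes depend on the fit. Of 11 mature-stage genes 2 passed edgeR's test, both higher with Dox. The list's median was 1.36, with 8 of 11 changes above 0. The genes that passed were Cd28, the costimulatory receptor (log2 change 2.45, SE 0.28, adjusted p = 0.0142), and Nr4a1, a gene induced by receptor signalling (2.10, SE 0.38, adjusted p = 0.0491).

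The count of 9 depended on the tumours, being 2 without VTL-25, 4 without VTL-33, VTL-44 or VTL-153, 5 without VTL-81 and 8 without VTL-21. Cd28 and Cpa3 passed in 12 of 12 alternatives, Poll in 10, Cd8b1 in 8, Lyl1 in 7, Hhex, Id3 and Nr4a1 in 6 each, and Foxo1 in 4. With Dox in independent tumours none of the 73 passed, and 0 of 12360 genes did with edgeR. None of the 73 had an unadjusted p under 0.05, against 87 of all genes (0.704%), and DESeq2 called 0 of all genes. The list medians lay between -0.19 for the double-positive list and 0.28 for the early list. 

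Tested as a difference of the Dox responses, independent minus evolving, 1 of 73 passed, where 0.121% of genes did: Cpa3, by 9.35 (SE 0.79, adjusted p = 0.0413). DESeq2 called 12 of the 73 and 4.44% of all genes. For Poll the difference was -2.53 (SE 0.43) and did not pass (adjusted p = 0.103). Its level in independent tumours was 27.0 CPM in VTL-33, 7.99 in VTL-44 and 21.2 in VTL-81 with Dox, against 22.4, 7.35 and 23.0 CPM without Dox. Without Dox, none of the 73 passed between classes with edgeR, where 0.259% of 12348 genes passed for independent minus evolving, 0.0972% for independent minus dependent and 0% for evolving minus dependent. At an unadjusted p under 0.05 there were 18, 14 and 1 of the 73 in that order, against 16.4%, 13.2% and 3.39% of all genes. DESeq2 called 14, 10 and 0 of the 73, against 8.73%, 6.47% and 0.523% of all genes.

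**Figure D4:**
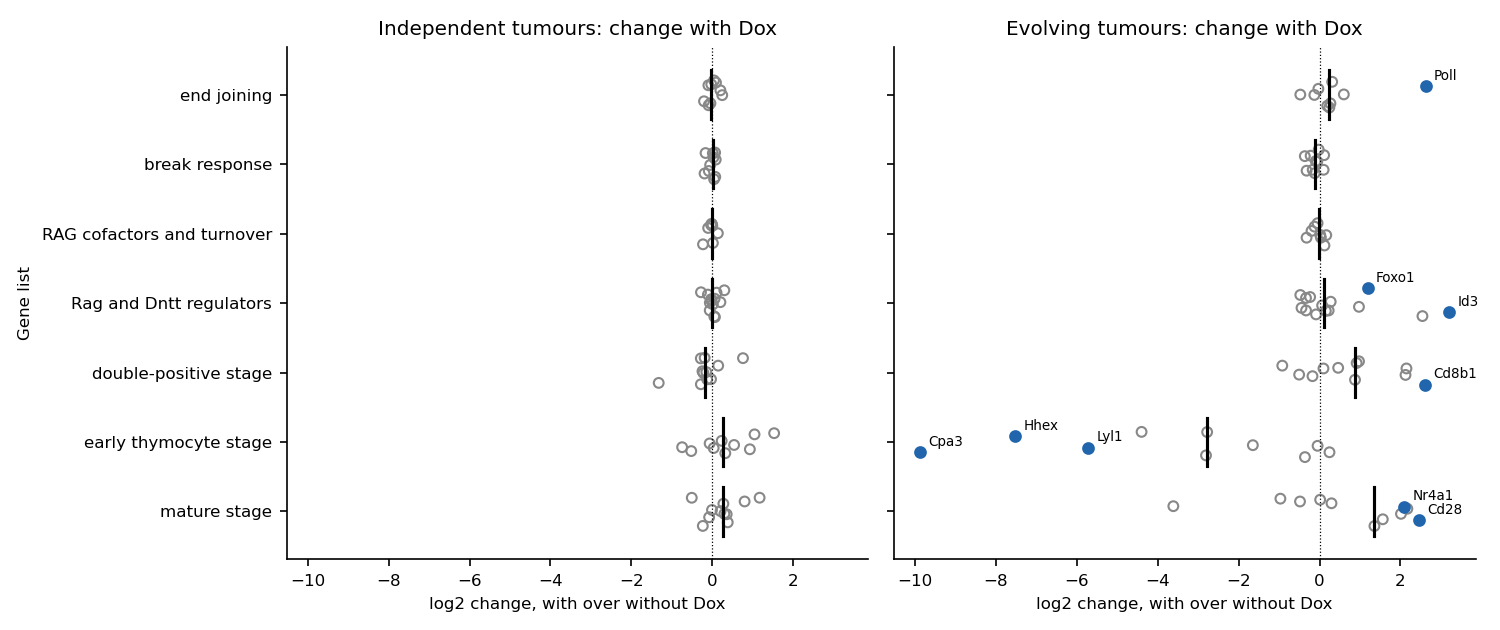
Fitted log2 change with Dox of each companion gene, by list, in independent and evolving tumours, with genes past an adjusted p of 0.05 marked. In evolving tumours 9 of 73 genes are marked, 3 of them below 0 in the early thymocyte list, and in independent tumours none is.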

How the data were processed

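RNA of sorted donor tumour cells, with integrity numbers above 8, was sequenced from NEBNext Ultra II libraries, per the labels' protocols. Per the submitters' processing notes, STAR 2.5.2b, featureCounts and mm10 were used, and the strand setting and annotation are not given in the sources used here. The deposited values are raw read counts per gene that the authors had not normalised. Every one of the 12421 genes listed had at least 1 CPM in at least 2 libraries, and 42 columns of other per-sample values were not used. Counts were fitted with edgeR 4.0.16 in R 4.3.3 (TMM factors, default filter with minimum count 10, robust quasi-likelihood, Benjamini-Hochberg over all genes, threshold 0.05). Log2 changes, SE and adjusted p come from these fits, and the SE is approximate (absolute change over the root of the F statistic).

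Dox effects used the 12 libraries of the 6 tumours with both libraries, with a tumour block and, per class, a Dox term, and class differences the 8 libraries without Dox. The tumour number in the titles gives the pairing. Deviations of partners from their group means correlated at 0.716, 0.645 and 0.563 in VTL-33, VTL-44 and VTL-81 and at 0.151, 0.0166 and 0.188 in VTL-21, VTL-25 and VTL-153. No source says whether tumours of a group came from separate donors, so p-values measure the spread between these tumours. VTL-153 and VTL-25 were the most alike pair without Dox, so the evolving class may hold fewer than 3 separate replicates. The likeness of genes was the Pearson r of log2 CPM (prior count 2) over 14 libraries, among protein-coding genes with a mean of at least 2, without predicted genes, receptor segments and X- or Y-linked genes, and the 5 highest were named, except 1 that is not reported here. Up to 4 companion genes past the threshold were named per list. The members and lists were chosen with earlier results of these data known. Positions are from GENCODE M21, where 12379 identifiers were found, and promoters from RefSeq (3 of 3 genes matched). Alternatives were RLE size factors, library totals, DESeq2 1.42.0, no filter, a fit that was not robust, no block, and each tumour left out. The script was tested on simulated data.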

Additional observations from a re-analysis of the deposited data

Results flagged for a closer look

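Cpa3, a protease of mast cells that is also expressed in early thymocytes, was flagged because its Dox response differed between the classes by the test of the difference itself. The difference of log2 changes, independent minus evolving, was 9.35 (SE 0.79, adjusted p = 0.0413, edgeR's quasi-likelihood test). It was at 4.94 CPM in VTL-33, 0.877 in VTL-44 and 5.86 in VTL-81 with Dox, against 15.0, 1.04 and 4.35 CPM without Dox. In evolving tumours with Dox it was at 0.442 CPM in VTL-21, 0.198 in VTL-25 and 0 in VTL-153, against 250.3, 246 and 80.4 CPM without Dox. It was lower with Dox in 3 of 3 evolving tumours, and the share of all genes with that pattern is not given here. The evolving values with Dox rest on 9 counts in VTL-21, 4 in VTL-25 and 0 in VTL-153, so the size of the difference depends on the fit. The difference passed the threshold in 6 of 12 alternatives, over which the adjusted p ran from 7.84e-24 to 0.143.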

How the results depend on the processing

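Of 225 alternative values of the Rag1, Rag2 and Dntt log2 changes, 220 moved by less than 1 SD between tumours, and the Dox changes kept their sign under every alternative run. That SD is a loose measure, being 1.13 for Dntt with Dox in evolving tumours against a change of -0.79. Leaving out 1 of 3 tumours can hardly move a mean change by 1 SD, so the 220 says little about stability. DESeq2 called 18 companion genes and 1314 genes in all for Dox in evolving tumours (edgeR 9 and 263), 12 and 549 for the difference of Dox responses (edgeR 1 and 15), 14 and 1068 for independent minus evolving (edgeR 0 and 32), 10 and 791 for independent minus dependent (edgeR 0 and 12), and 64 genes in all for evolving minus dependent (edgeR 0). Library totals gave 1 companion gene for independent minus evolving. Without the replicate block, Dox in evolving tumours gave 3 companion genes and 73 genes in all, and the difference of Dox responses 0 and 1. The block changed no sign of a RAG value: without it the difference was -2.91 for Rag1 and -3.68 for Rag2.

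With each tumour left out in turn, companion genes and all genes called were 2 to 8 and 49 to 347 for Dox in evolving tumours, 0 to 3 and 0 to 58 for the difference of Dox responses, 0 to 3 and 3 to 144 for independent minus evolving, and 0 to 2 and 2 to 73 for independent minus dependent. For evolving minus dependent all genes called were 0 to 1. The highest counts without Dox came without VTL-44. Independent minus dependent ran from 1.22 to 4.00 for Rag1 and 3.21 to 12.58 for Rag2. Evolving minus dependent ran from 0.65 to 3.42 for Rag1, 1.91 to 10.91 for Rag2 and -0.74 to 0.30 for Dntt, positive without VTL-19. Independent minus evolving ran from -0.08 (without VTL-33) to 1.01 for Rag1. Without VTL-19 the only dependent tumour is VTL-24, with no Rag2 count, so the fitted Rag2 value depends on the prior count and is no bound, and VTL-24 is taken to have the spread of the other classes. The cause of these shifts was not tested.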
